A study of Mus musculus with 3 samples.

Results

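The genes described here encode voltage-gated and potassium ion channels: every gene of the filtered count table whose symbol starts with *Kcn* or *Cacn*, or with *Hcn* or *Scn* followed by a digit. There were 107 such genes among 14933 genes of the table. A further 36 matching symbols of the gene list were not in the filtered table. All 107 were matched by identifier to the GENCODE vM21 annotation of GRCm38, the build that the authors call mm10.

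The study asked what loss of the transcription factor TBR1 does to layer 5 neurons, and it recorded intrinsic electrical properties of these cells, the h-current among them, at a later age. tdTomato-positive cells were sorted from medial prefrontal cortex (mPFC) of C57Bl6 mice at postnatal day 5 and captured on the 10X Genomics platform, with 1 library for each genotype. The libraries were wild-type (*Rbp4cre*::*tdTomato*), heterozygous (*Tbr1*f/+::*Rbp4cre*::*tdTomato*) and homozygous (*Tbr1*f/f::*Rbp4cre*::*tdTomato*). All 3 libraries therefore carried the *Rbp4cre* driver, which acts in layer 5 pyramidal neurons, and the reporter. How many animals went into each library was not given in the sources used here.

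Ion channels set how a neuron fires. Sodium and calcium channels carry inward current when the membrane depolarizes, potassium channels carry outward current that ends or prevents the spike, and HCN channels open on hyperpolarization and pass the h-current. Pore-forming subunits make the channel, and auxiliary subunits set its gating, its sorting to the membrane and its density. Several potassium channels are also well known outside neurons, in astrocytes, microglia and the cells of blood vessels.

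Values are unique molecular identifiers (UMIs, 1 for each captured 3′ transcript end) summed over the cells of a library and given as CPM, the count scaled to the same UMI total in every group of cells. The authors divided the cells into typical neuronal cells, atypical neuronal cells that they left out of their own comparisons, and other filtered cells. The typical cells numbered 1778, 5357 and 3935 in the wild-type, heterozygous and homozygous library (the order used throughout), with median UMIs per cell of 1901, 1743 and 1375. With 1 library per genotype there was no replicate error and no test, and every interval below is an exact 95% interval of counting error only. The libraries shared few cell barcodes, from 37 to 58 for each pair.

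The typical cells were set against their markers and against empty droplets, barcodes of low UMI count outside the filtered list, which hold free RNA of the suspension. The 7 listed excitatory markers summed to 2099, 2511 and 3177 CPM in typical cells against 1132, 1616 and 1852 in empty droplets. The 9 astrocyte or radial glia markers summed to 7061, 6106 and 6995 CPM, and these sums lay between 0.94 and 1.02 times those of empty droplets. *Malat1*, an abundant RNA of the nucleus, was at 1129, 348 and 594 CPM in typical cells, lower than in the empty droplets (3186, 1931 and 1908) and far lower than in the other filtered cells (33113, 14926 and 26359). Ratios between genotypes whose interval excluded 0 are therefore given with the ratio in empty droplets for single channel genes. *Tbr1* itself was at 27.5, 30.7 and 22.4 CPM, but 3′ tags lie outside the floxed exons and do not test the deletion.

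Channel transcripts were rare in typical cells. The 107 genes summed to 1002, 1051 and 999 CPM. Only 12 genes (11.2%) averaged 20 CPM or more over the 3 libraries, compared with 4261 of the 14933 genes of the table (28.5%). Of the others, 38 had a mean of 5 to 20 CPM, 39 of 1 to 5 CPM and 18 under 1 CPM, and 99 of the 107 had at least 1 UMI in each library.

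*Cacnb3*, which encodes a cytosolic β subunit of high-voltage-activated calcium channels, was the highest, at 101, 121 and 113 CPM. *Kcnk2*, a mechanically gated two-pore potassium channel, was at 64.0, 51.9 and 55.8 CPM. Auxiliary subunits made up 8 of the 12 genes. *Kcnmb4*, the neuronal β subunit of the large-conductance calcium-activated potassium channel, was at 43.9, 42.9 and 44.5 CPM. *Kcne1l*, a single-pass modulator of potassium channels, was at 37.3, 40.4 and 36.2 CPM, and *Kcnip2*, a calcium-binding partner of Kv4 channels, at 36.8, 40.0 and 32.8 CPM. *Kcnip3*, of the same family, *Cacng2* and *Cacng4*, whose products accompany AMPA receptors, and the antisense transcript *Kcnmb4os2* completed the auxiliary and noncoding genes past 20 CPM. Besides *Kcnk2*, 2 pore-forming genes passed that level. *Scn2a1*, the main sodium channel of young excitatory axons, was at 32.1, 31.4 and 27.7 CPM, and *Kcnq3*, a pore subunit of the M-current, was at 24.5, 19.7 and 19.3 CPM.

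**Figure D1:**
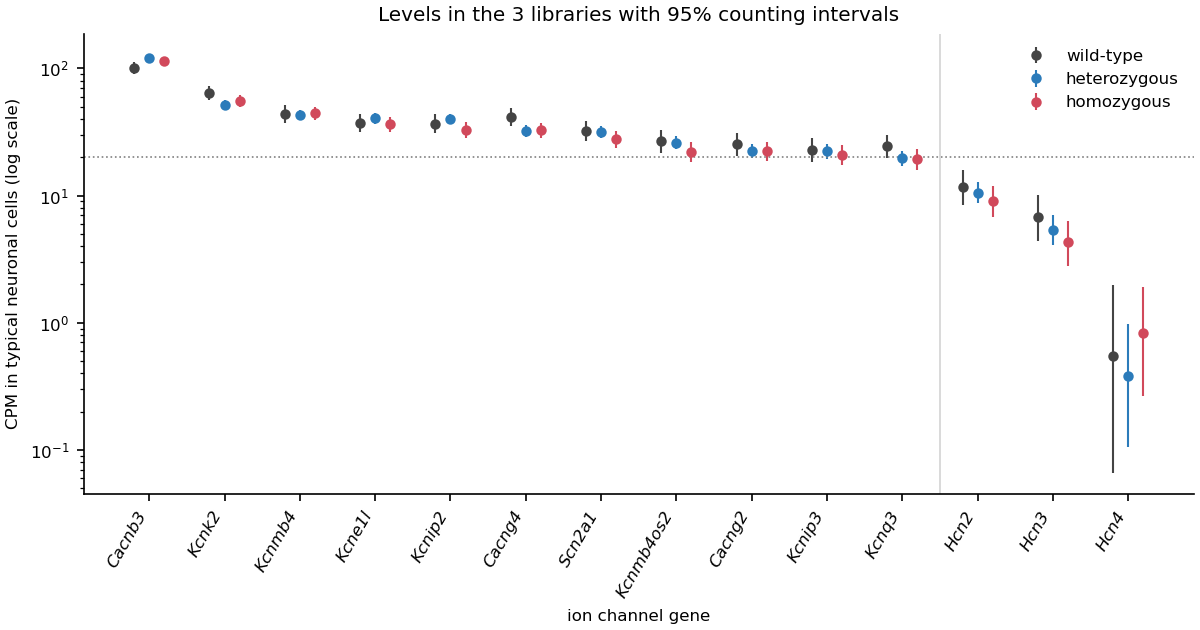
CPM in typical neuronal cells (log scale) of 11 of the 12 channel genes that averaged 20 CPM or more (dotted line) and of 3 HCN genes, 1 point per library with its 95% Poisson counting interval. *Cacnb3* is the highest in every library and *Hcn4* the lowest of those shown, and within most genes the intervals of the 3 libraries overlap.

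No channel gene past 20 CPM changed by more than 1.5-fold in any pair of libraries. In homozygous over wild-type cells, 0 of 12 were higher (2.96% of all genes tested) and 0 lower (1.95%). In heterozygous over wild-type cells, 0 of 12 were higher (3.59%) and 0 lower (2.39%), and in homozygous over heterozygous cells 0 were higher (0.681%) and 0 lower (0.469%). With 12 genes these shares amount to less than 1 gene each, so a count of 0 is near the background. The median log2 ratio of the 12 genes was -0.17 in homozygous over wild-type cells, beside 0.08 for the 4261 genes, and -0.04 in heterozygous over wild-type cells, beside 0.06. Both ratios share the wild-type library.

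Smaller differences were read from the counting intervals. In homozygous over wild-type cells the interval lay above 0 for 1 of 12 genes (26.2% of all genes tested) and below 0 for 1 (13.5%). *Cacng4* was lower, with a log2 ratio of -0.35 (-0.67 to -0.04). In heterozygous over wild-type cells it lay above 0 for 2 (26.8%) and below 0 for 2 (16.8%). *Cacnb3* was higher (0.27, 0.10 to 0.44). *Kcnk2* was lower (-0.30, -0.53 to -0.07), as was *Cacng4* (-0.38, -0.66 to -0.09). In homozygous over heterozygous cells the interval lay above 0 for none of the 12 genes (14.6%) and below 0 for 1 (10.2%), *Kcnip2* (-0.29, -0.54 to -0.04), whose droplet ratio was -0.11 (-0.31 to 0.10). These counts are below or near the shares over all genes, which were not matched for level.

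*Cacng4* had ratios of similar size in empty droplets, at -0.38 in homozygous and -0.46 in heterozygous over wild-type. *Cacnb3* was at 0.20 and 0.28 in empty droplets and *Kcnk2* at -0.21 and -0.45. *Kcnq3* differed: its ratios were -0.35 (-0.76 to 0.06) and -0.32 (-0.68 to 0.06) in typical cells, with intervals that held 0, against 0.21 and 0.25 in empty droplets. *Kcnmb4os2* likewise was lower in homozygous typical cells (-0.28, -0.66 to 0.12) and higher in the droplets (0.32). Of the 12 genes, 8 had the same sign in droplets as in cells for homozygous over wild-type and 7 for heterozygous over wild-type. The share over all genes was not computed, so these counts support nothing about the set. Markers of cells outside the neuronal lineage were also highest in wild-type typical cells, with meningeal fibroblast markers at 314, 34.0 and 46.6 CPM and blood markers at 345, 44.6 and 85.8 CPM. The part of free RNA in the differences was not tested beyond an alternative that subtracted the droplet profile.

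**Figure D2:**
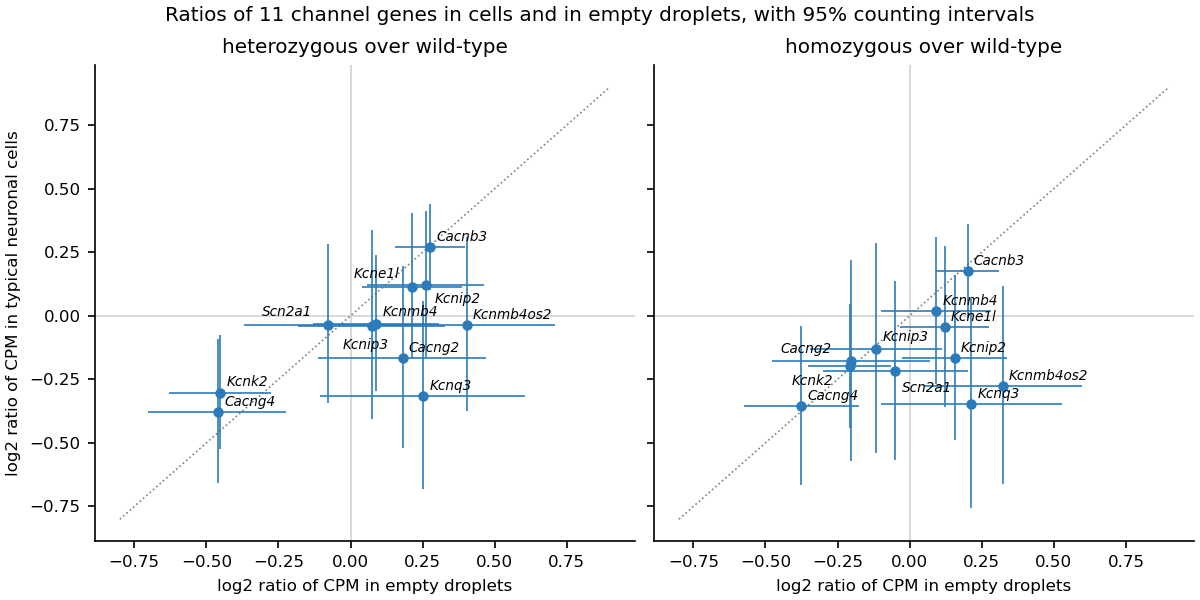
Log2 ratio of CPM in typical neuronal cells (vertical axis) against the log2 ratio in empty droplets of the same libraries (horizontal axis) for 11 of the 12 channel genes past 20 CPM, with 95% counting intervals in both directions and a dotted line of equality. *Cacng4* lies at the lower left near the line in both panels, whereas *Kcnq3* and *Kcnmb4os2* lie below it.

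By role, the summed levels of the groups given first did not differ beyond counting error between genotypes. The 32 voltage-gated potassium pore genes summed to 175, 173 and 167 CPM, and the 5 sodium channel α genes to 54.5, 53.4 and 47.6 CPM. The 8 calcium channel α1 genes summed to 48.2, 40.5 and 44.8 CPM, the 3 α2δ genes to 18.5, 18.8 and 18.4 CPM, and the 4 β genes to 142, 156 and 145 CPM. The 10 inward rectifier genes summed to 41.7, 55.6 and 53.5 CPM, and their ratio of homozygous over wild-type excluded 0 (0.36, 0.08 to 0.65), as did that of heterozygous over wild-type (0.42, 0.16 to 0.68). The 12 potassium channel auxiliary genes, at 178, 198 and 175 CPM, differed in the heterozygous library alone (0.15, 0.02 to 0.28 over wild-type). Of the inward rectifiers, *Kcnj16*, a partner subunit of *Kcnj10* channels, went from 8.17 CPM to 16.0 and 14.8 CPM (30, 167 and 90 UMIs).

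Several genes that were among the highest of their role lay below 20 CPM and had genotype intervals that held 0. They were *Scn3b*, a sodium channel β subunit, at 13.1, 13.7 and 13.01 CPM, and *Kcnk1*, a two-pore channel, at 10.1, 13.6 and 13.3 CPM. The large-conductance calcium-activated pore *Kcnma1* was at 10.1, 9.98 and 10.4 CPM, the small-conductance *Kcnn1* at 7.08, 6.72 and 8.07 CPM, and the P/Q-type calcium channel pore *Cacna1a* at 8.72, 9.31 and 8.89 CPM.

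Other genes below 20 CPM varied more. *Kcnj16* was higher in both mutant libraries (log2 0.86, 0.25 to 1.51 in homozygous and 0.97, 0.40 to 1.58 in heterozygous over wild-type). It was also higher in empty droplets, at 0.39 (0.05 to 0.73) and 0.58 (0.20 to 0.95). *Cacnb4*, another calcium channel β subunit, was lower in the homozygous library (-0.66, -1.11 to -0.20), at 22.1, 17.4 and 14.0 CPM, and its droplet ratio was -0.20 (-0.54 to 0.14). The interval of *Cacna1e*, the R-type calcium channel pore, lay below 0 only in heterozygous over wild-type (-0.84, -1.42 to -0.26), at 11.7, 6.53 and 7.74 CPM, and its droplet ratio there was -0.17 (-0.78 to 0.42). Outside the rule for named genes and chosen after their values were seen, *Kcnd2*, a Kv4 pore of the A-type current, was at 14.4, 9.02 and 9.55 CPM (-0.60, -1.16 to -0.03 in homozygous over wild-type), with a droplet ratio of -0.43 (-0.85 to -0.02). In heterozygous over wild-type its ratio was -0.68 (-1.18 to -0.16), with a droplet ratio of 0.00 (-0.44 to 0.44). *Cacna1i*, a T-type calcium channel and chosen likewise, was at 4.09, 7.01 and 8.40 CPM (1.04, 0.19 to 1.98), with a droplet ratio of -0.11 (-0.72 to 0.50). Among the 50 channel genes that averaged 5 CPM or more, the interval of homozygous over wild-type lay above 0 for 3 (16.4% of all genes at that level) and below 0 for 4 (10.1%). These counts are fewer than those shares give, but the levels were not matched. Of the 50 genes, 38 lay under 20 CPM, whereas 4261 of all 8520 genes averaged 20 CPM or more. Intervals widen with fewer UMIs, so the counts support nothing about the set.

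**Figure D3:**
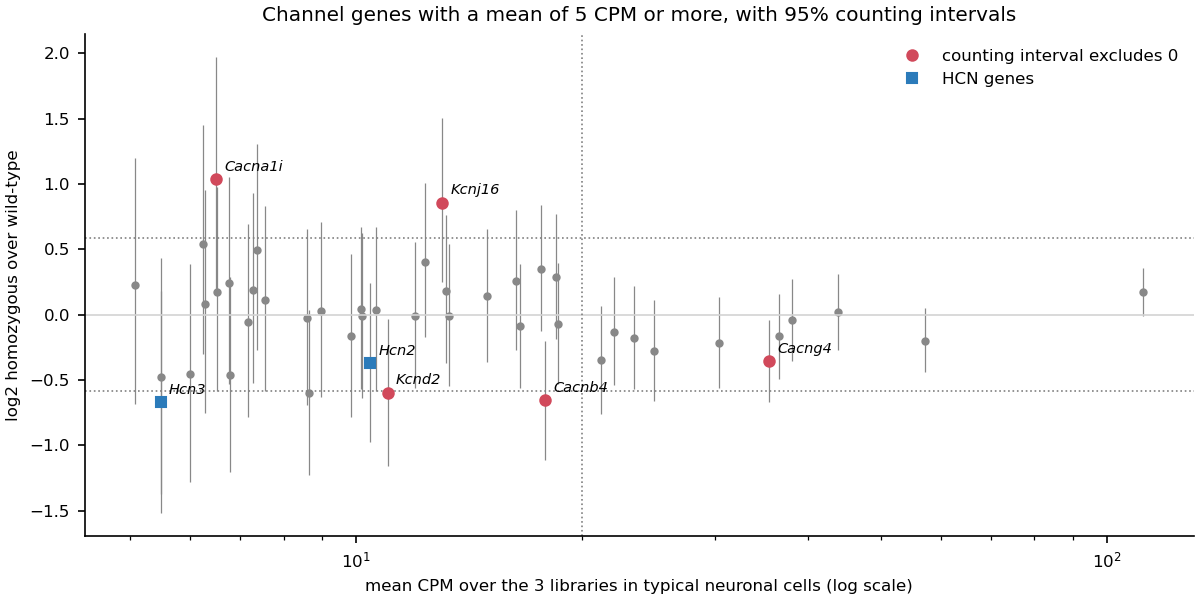
Log2 ratio of homozygous over wild-type CPM against the mean CPM over the 3 libraries (log scale) for 46 of the 50 channel genes that averaged 5 CPM or more in typical neuronal cells. Bars are 95% counting intervals, horizontal dotted lines mark 1.5-fold and the vertical dotted line 20 CPM. The 5 red points have intervals that exclude 0, and past 20 CPM none of the points crosses the 1.5-fold lines.

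HCN genes were examined because the study recorded the h-current. *Hcn2*, the broadly expressed isoform, was at 11.7 (8.48 to 15.8), 10.6 (8.68 to 12.7) and 9.05 (6.82 to 11.8) CPM. *Hcn3* was at 6.81 (4.41 to 10.1), 5.38 (4.06 to 6.98) and 4.28 (2.80 to 6.27) CPM. *Hcn4*, the slow isoform of pacemaker cells and thalamus, had 2, 4 and 5 UMIs in all typical cells of the 3 libraries. UMIs of a 3′ kit do not scale with transcript length, although capture can differ between genes. *Hcn2* was the highest of these 3 genes in every library. Its interval was separate from that of *Hcn3* in the heterozygous and homozygous libraries and overlapped it in the wild-type library.

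Between genotypes *Hcn2* and *Hcn3* did not differ beyond counting error. For homozygous over wild-type the log2 ratio was -0.37 (-0.97 to 0.24) for *Hcn2* and -0.67 (-1.52 to 0.18) for *Hcn3*. For heterozygous over wild-type it was -0.15 (-0.67 to 0.39) and -0.34 (-1.05 to 0.40). A fall of either gene by 1.5-fold lies inside its homozygous interval and is not excluded by these counts. *Hcn2* was near its level in empty droplets, at 1.06-fold.

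Of the 12 genes past 20 CPM, 5 lay above the droplets with intervals above 0 in all 3 libraries (15.4% of all genes tested) and 1 lay below (6.41%). *Scn2a1* led them with a median of 1.71-fold, followed by *Kcnq3* (1.49-fold), *Kcnmb4os2* (1.41-fold), *Kcnmb4* (1.35-fold) and *Cacng4* (1.26-fold). *Kcne1l* was the gene below the droplets, at 0.74-fold. *Cacnb3*, *Kcnk2* and *Kcnip2*, 3 of the most abundant channel transcripts, were at 1.10, 1.09 and 1.01 times the droplet level. Since the authors chose typical cells by clustering on expression, these ratios are a description.

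The atypical neuronal cells, 304, 107 and 462 per library, gave the *Kcnip2* level of 50.3, 116 and 88.6 CPM. Over typical cells of the same library its log2 ratio was 0.45 (lower bound -0.14), 1.53 (0.89 to 2.11) and 1.43 (1.01 to 1.84), higher in all 3 although the wild-type interval held 0. *Kcne1l* was at 50.3, 83.2 and 51.0 CPM (0.43, 1.04 and 0.49). *Kcna6*, a Kv1 channel of axons, was at 23.7, 37.0 and 22.8 CPM (0.74, 1.30 and 0.54). For *Kcne1l* and *Kcna6* the wild-type and homozygous intervals held 0, and the heterozygous *Kcna6* value rests on 8 UMIs. Past 2-fold in all 3 libraries, 0 of the 15 channel genes that averaged 20 CPM or more in either group were higher (1.04% of all genes tested) and 1 was lower (0.755%). Without the wild-type library 2 of 15 were higher (*Kcnd2* and *Kcnip2*; 1.40% of all genes), of which *Kcnd2* passed the level limit only through the atypical cells. The lower gene was *Kcnmb4os2*, which no longer passed when cells were thinned to 1000 UMIs each, with 2, 1 and 5 UMIs in atypical cells against 98, 271 and 134 in typical cells. Its log2 ratio was -3.17 (-6.24 to -1.28), -2.49 (-7.80 to -0.00) and -1.72 (-3.36 to -0.46). *Kcnmb4* itself, which *Kcnmb4os2* overlaps at its start on chromosome 10, was at 28.1, 27.7 and 30.9 CPM in atypical cells. Whether the counting used strand was not given in the sources used here, so reads from where genes overlap may not be told apart. Here the overlap runs from 116473163 to 116473878, and the annotated 3′ ends of both genes lie outside it.

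*Cacna2d3*, an α2δ subunit, had few UMIs in atypical cells (7, 2 and 10) but a ratio of 1.66, 1.34 and 2.10. Its heterozygous interval (-1.75 to 3.29) held 0. *Cacng2* (-0.01, -1.29 and -0.74) and *Cacnb1* (-0.95, -1.82 and 0.11) had the lowest median ratios after *Kcnmb4os2* among the genes compared by the naming rule, and their intervals held 0 in each library.

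TBR1 is a T-box factor, and the letters of a T-box motif were sought on both strands of the RefSeq promoter windows (GRCm38.p6, from 250 bases before to 50 after the start) of the channel genes. Windows were found for 77 of the 107 genes, 110 windows in all. AGGTGTGA or its reverse complement TCACACCT was in 0 of these, and in 1.28% of all 32851 windows. The shorter core GGTGTGA, which the longer motif contains, or TCACACC was in 5 (4.55%), those of *Cacna1b*, *Kcna6*, *Kcnc1*, *Kcnd3os* and *Kcnf1*, and in 3.98% of all windows. The windows of *Kcna6* (chr6:126740625-126740924, minus strand) and *Kcnd3os* (chr3:105452906-105453205, minus strand), 2 of the named genes, are shown with the core in capitals to place it.
Kcna6: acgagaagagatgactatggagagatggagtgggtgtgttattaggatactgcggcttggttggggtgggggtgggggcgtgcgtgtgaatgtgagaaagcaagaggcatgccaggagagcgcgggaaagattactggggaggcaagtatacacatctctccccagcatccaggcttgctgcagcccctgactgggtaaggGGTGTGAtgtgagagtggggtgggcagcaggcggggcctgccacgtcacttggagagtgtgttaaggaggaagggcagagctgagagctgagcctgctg
Kcnd3os: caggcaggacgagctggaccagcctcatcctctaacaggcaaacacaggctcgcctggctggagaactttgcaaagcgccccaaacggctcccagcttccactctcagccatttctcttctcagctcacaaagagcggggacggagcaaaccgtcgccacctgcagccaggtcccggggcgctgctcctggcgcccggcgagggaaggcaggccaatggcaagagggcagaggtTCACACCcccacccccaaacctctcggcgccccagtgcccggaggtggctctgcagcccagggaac
The core lies before the start of both genes. *Kcna6* was at 14.2, 14.97 and 15.6 CPM in typical cells and *Kcnd3os*, antisense to the Kv4 gene *Kcnd3*, at 2.18, 2.02 and 2.14 CPM, with ratios between genotypes that held 0. A match of these letters is a description and no binding site was measured here.

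The other filtered cells, 2873, 1398 and 1182 per library, held many cell types, so the channel genes were followed in them next. Past 2-fold over typical cells in all 3 libraries, 2 of 19 channel genes were higher (17.8% of all genes tested) and 0 were lower (0.0165%). The 19 genes averaged 20 CPM or more in other or in typical cells. The 2 higher genes were *Kcnj8* and *Kcnq1ot1*, which passed that limit only through the other cells and so had to differ, and their count supports nothing about the set. Without the heterozygous library 5 of 18 were higher (*Scn3a*, *Cacna1a* and *Cacna2d2* besides; 26.6% of all genes) and 1 was lower (*Cacnb3*; 1.09%). The 5 higher genes all passed the level limit only through the other cells, so this count supports nothing either. The cells were grouped into 21 clusters with all 107 channel genes left out, and a cluster was named only where listed markers led it. Of the 107 genes, 89 had at least 30 UMIs in these cells, and 88 of them had a higher level in some cluster than in typical cells. A maximum over 21 clusters is likely to exceed a pooled level. The share over all genes was not computed for this count, so it supports nothing about the set. The highest level exceeded the pooled typical level by over 2-fold at the lower interval bound for 63 of the 89 genes (70.8%), against 60.1% of all 12988 genes with as many UMIs, and by over 10-fold for 16 (17.98%), against 18.9%. A 10-fold excess was therefore no more frequent among channel genes. These maxima were picked among 21 clusters, which many of the other genes helped to form, and are a description. *Kcnj2*, *Kcnip3*, *Scn1a*, *Scn2b*, *Kcnc2*, *Cacna2d2*, *Kcnh7* and *Kcnb2* below stand outside the rule for named genes and were chosen after their values were seen.

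**Figure D4:**
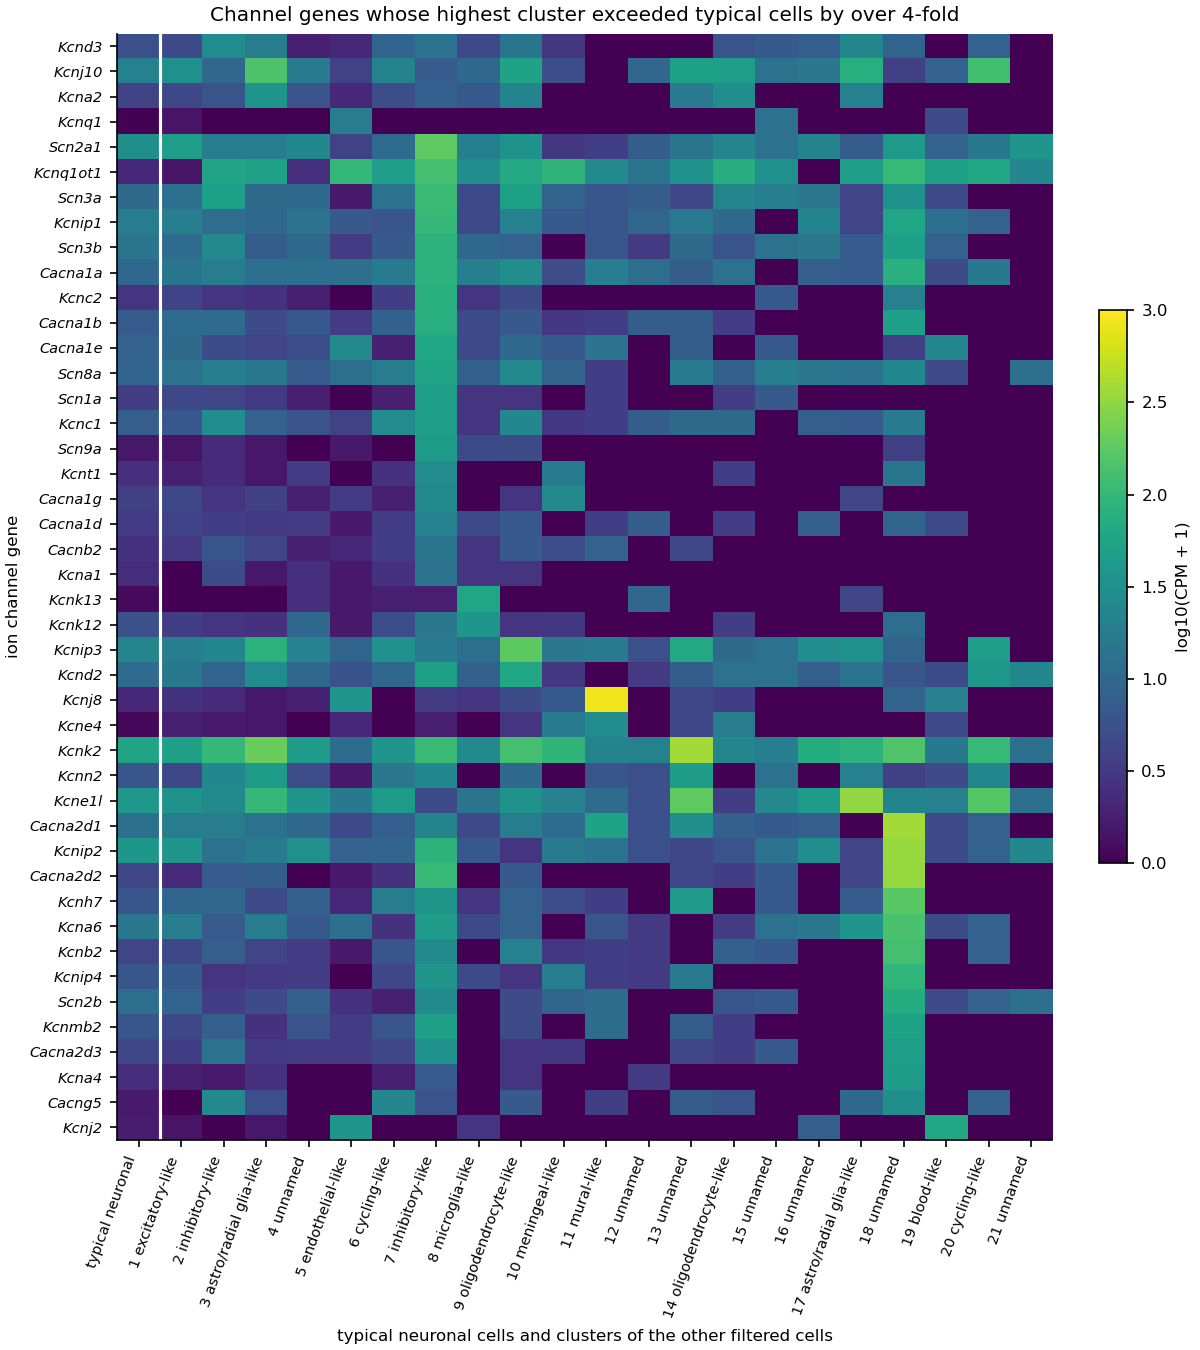
Levels, as log10(CPM + 1), of the 44 channel genes whose highest cluster exceeded typical neuronal cells by more than 4-fold at the lower interval bound. The first column is the typical neuronal cells, the others are the 21 clusters of the other filtered cells, and genes are ordered by their highest cluster. Bright blocks stand in inhibitory neuron-like cluster 7 and in cluster 18, and *Kcnj8* in mural-like cluster 11 is the brightest cell.

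*Kcnj8*, the Kir6.1 pore of ATP-sensitive potassium channels known from pericytes and vascular smooth muscle, reached the highest level of all channel genes in any cluster. In the mural-like cluster of 161 cells (*Acta2*, *Higd1b*, *Rgs5*) it was at 920.5, 876 and 700 CPM, with 205, 50 and 73 UMIs. In typical cells it had 6, 10 and 9 UMIs (1.63, 0.96 and 1.48 CPM). The mural-like cluster held 78.8% of the UMIs of *Kcnj8* in other filtered cells, and 63.4% of its cells had a UMI, against 0.23% of typical cells. The median depth of that cluster was 2111 UMIs per cell, against 1901, 1743 and 1375 in typical cells. The pooled level of 854 CPM was 689-fold that of typical cells (458 to 1080), and empty droplets had 7.80 CPM. The endothelial-like cluster followed with 37.5, 52.2 and 22.2 CPM. *Kcne4*, an auxiliary subunit known from vascular muscle, was also highest in the mural-like cluster, with 6, 3 and 2 UMIs there and 2, 1 and 0 in typical cells. All other filtered cells together had 28, 5 and 3 UMIs of *Kcne4*, so most of the wild-type ones lay outside that cluster.

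Other genes marked other cells outside the neuronal lineage. *Kcnq1*, the delayed rectifier of epithelia and heart, had 13, 6 and 11 UMIs in the endothelial-like cluster of 507 cells (*Cldn5*, *Ly6c1*, *Flt1*) and 0, 0 and 1 UMIs in all typical cells. This cluster held 30 of the 34 UMIs of *Kcnq1* in other filtered cells. *Kcnj2*, a strong inward rectifier of vascular endothelium, was at 40.4, 44.2 and 24.6 CPM there, although its highest level was in the blood-like cluster of 61 cells (61.4 CPM pooled, 16 UMIs). *Kcnk13*, the two-pore channel THIK-1 of microglia, was at 60.3, 69.7 and 31.6 CPM in the microglia-like cluster of 190 cells (16, 12 and 3 UMIs), against 1, 2 and 1 UMIs in typical cells. In each of these clusters all 3 libraries lay above their own typical cells.

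In astrocyte or radial glia-like cluster 3, 685 cells led by *Slc7a10*, *Ptprz1* and *Slc4a4*, the Kir4.1 pore *Kcnj10* was at 149, 129 and 138 CPM and its partner *Kcnj16* at 64.9, 67.8 and 73.6 CPM. The pair is known for potassium uptake by astrocytes. In typical cells *Kcnj10* was at 17.98, 20.5 and 17.1 CPM, 1.72 times the droplet level at the median. As given above, astrocyte markers were at the droplet level in typical cells, and their part in the *Kcnj10* and *Kcnj16* values there was not tested. *Kcnk2* was at 231, 145 and 175 CPM in cluster 3 and higher still in unnamed cluster 13 (*Dynlrb2*, *Ccdc153*, *Rsph1*), at 396, 208 and 429 CPM from 97, 5 and 13 UMIs. *Kcne1l* peaked in the *Gfap* and *Aqp4* cluster 17, at 319, 278 and 423 CPM.

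Oligodendrocyte lineage-like cluster 9, led by *Pdgfra*, *Lhfpl3* and *C1ql1*, held 187 cells, of which 158 came from the wild-type library. It had the highest *Kcnip3* (179, 195 and 77.0 CPM) and *Cacng4* (173, 146 and 154 CPM). The heterozygous and homozygous values rest on 3 to 6 UMIs each. In typical cells these genes were at 22.9, 22.3 and 20.9 CPM and at 41.7, 32.1 and 32.6 CPM.

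Inhibitory neuron-like cluster 7 (*Npy*, *Sst*, *Tac1*; 337 cells) was the highest cluster for 36 of the 89 genes (40.4%), against 10.1% of all genes. The sodium channel α genes lay together here with the β gene *Scn3b*, whereas the β gene *Scn2b* was highest in cluster 18. *Scn2a1* was at 233, 148 and 149 CPM, *Scn3a* at 136, 80.9 and 115 CPM, *Scn1a* at 40.5, 43.9 and 57.5 CPM and *Scn9a* at 64.3, 32.4 and 31.4 CPM. *Scn1a* is known as a sodium channel of inhibitory neurons and *Scn9a* as one of sensory and neuroendocrine cells. *Kcnc2*, a Kv3 channel of fast-spiking and somatostatin interneurons, was at 54.8, 92.5 and 91.4 CPM against 1.84 CPM in the pooled typical cells. *Hcn3* was at 30.97, 18.5 and 39.2 CPM, 5.49-fold the pooled typical level (3.66 to 8.08). The other inhibitory neuron-like cluster, number 2 (*Igfbpl1*, *Dlx6os1*, *Sp8*; 764 cells), was lower for each of these, with *Hcn3* at 7.63 CPM and *Scn2a1* at 17.8 CPM pooled.

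Cluster 18, 70 cells led by *Reln*, *Ndnf* and *Lhx1os* and left unnamed, was the highest for 18 of the 89 genes (20.2%), against 9.59% of all genes. The median depth of its cells was 5745.5 UMIs. *Cacna2d1*, the α2δ subunit that binds gabapentinoids, was at 368, 392 and 572 CPM, and *Cacna2d2* at 379, 164 and 440 CPM. The pooled levels were 32.5-fold (26.2 to 40.2) and 99.8-fold (73.7 to 136) those of typical cells. *Kcnip2* was at 334, 429 and 132 CPM. The potassium pores *Kcnh7*, of the Erg family, and *Kcnb2*, a delayed rectifier, were at 161, 202 and 132 CPM and at 116, 88.4 and 352 CPM. The cluster held 50, 14 and 6 cells per library, so the homozygous values of *Kcnip2* and *Kcnh7* rest on 3 UMIs each. Without the 5% of cells with the most UMIs, the pooled level of *Kcnip2* in this cluster went from 342 to 214 CPM and that of *Cacna2d2* from 337 to 420 CPM.

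**Figure D5:**
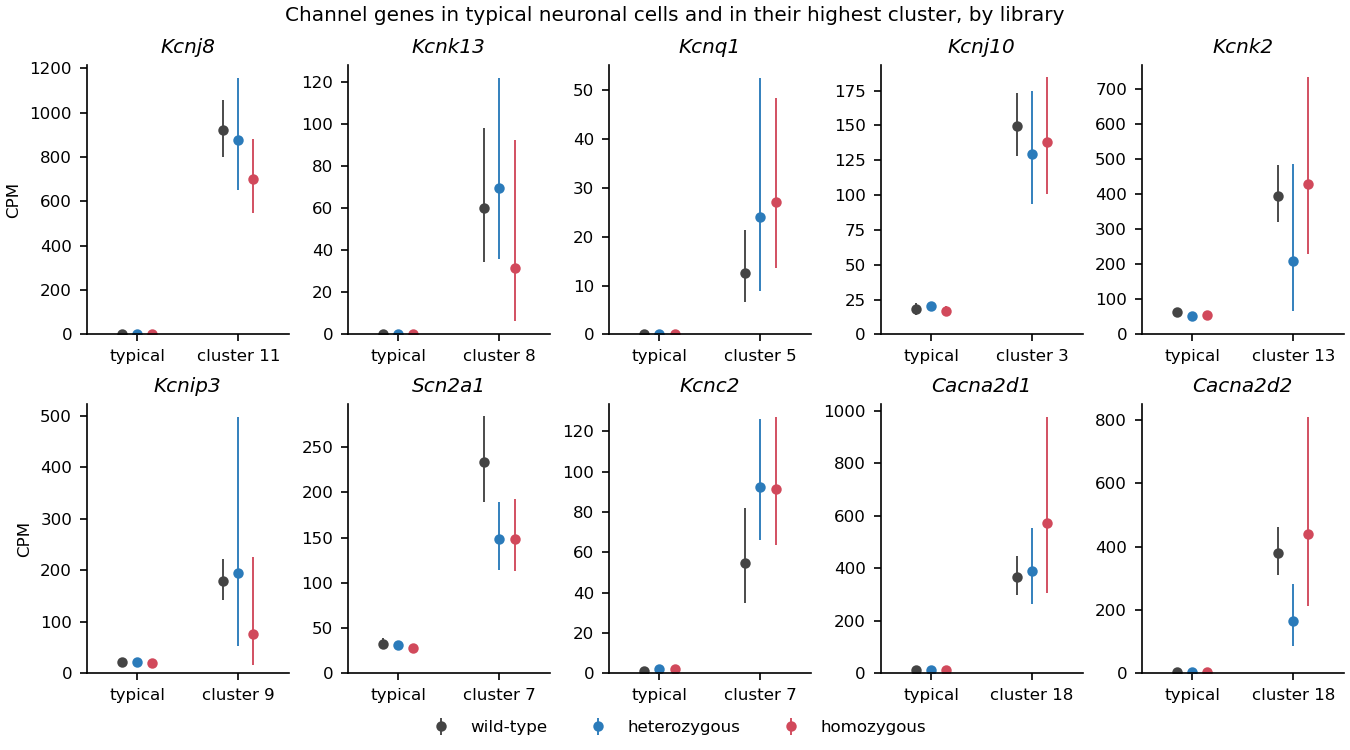
CPM of 10 channel genes in typical neuronal cells and in the cluster of other filtered cells where each was highest, 1 point per library with its 95% Poisson counting interval, on axes that start at 0. In every panel the 3 cluster values lie above the 3 typical values, and the intervals are widest where a library gave few cells, such as the homozygous library in cluster 18.

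*Kcnq1ot1*, the long noncoding RNA transcribed antisense within *Kcnq1* on chromosome 7 and known to be retained in the nucleus, was far higher outside typical cells. In other filtered cells it was at 64.9, 29.9 and 39.8 CPM (559, 129 and 106 UMIs). In typical cells it was at 1.36, 1.15 and 1.15 CPM (5, 12 and 7 UMIs), which gave log2 ratios of 5.57 (4.34 to 7.20), 4.70 (3.84 to 5.69) and 5.11 (4.02 to 6.46). It was not confined to a cell type: 18 of the 21 clusters had between 13.3 and 131 CPM, and the 3 clusters under 2 CPM were excitatory neuron-like cluster 1 and unnamed clusters 4 and 16. *Malat1* was low in the same 3 clusters, at 850, 1003 and 805 CPM against 5339 to 71526 CPM in the other 18. The mitochondrial share of UMIs was 14.9, 12.7 and 12.4% in these 3 clusters and 10.7, 15.7 and 12.8% in typical cells of the 3 libraries, against 3.1 to 10.5% in the other 18. The part of nuclear RNA content in the *Kcnq1ot1* difference was not tested.

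In clusters 1, 4 and 16 *Cacnb3* was at 113, 95.8 and 115 CPM, beside 115 CPM in the pooled typical cells, and *Kcnk2* at 49.3, 44.6 and 71.9 CPM beside 55.3. *Scn2a1* was higher in cluster 1, at 46.3 CPM beside 30.4 CPM in typical cells, and at 24.3 and 21.6 CPM in clusters 4 and 16. *Cacnb3* was lower than typical cells when the other filtered cells were taken whole (45.7, 84.8 and 56.0 CPM, with log2 ratios of -1.14, -0.52 and -1.02).

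Genes that are no channels by name but bind or modulate them were listed as well. Of 19 such partners 18 were in the table and 4 averaged 20 CPM or more. Past 1.5-fold, 0 of the 4 were higher (2.96% of all genes) or lower (1.95%) in homozygous over wild-type cells. In heterozygous over wild-type cells 1 was higher (3.59%) and 0 were lower (2.39%). That gene was *Fgf13*, an intracellular partner of sodium channels, with 472, 2259 and 1153 UMIs and log2 ratios of 0.75 (0.61 to 0.90) in heterozygous and 0.56 (0.41 to 0.72) in homozygous over wild-type cells. *Pex5l*, the HCN auxiliary protein TRIP8b, had 68, 227 and 161 UMIs and a ratio of 0.52 (0.10 to 0.95) in homozygous over wild-type cells. In homozygous over heterozygous cells *Fgf12* was lower (-0.43, -0.66 to -0.21) and *Fgf13* was lower (-0.19, -0.30 to -0.09). In heterozygous over wild-type cells *Fgf12* was higher (0.28, 0.02 to 0.55). For *Fgf12* and *Cntnap2*, the other partners past 20 CPM, the homozygous over wild-type intervals held 0. By interval, 2 of the 4 partners lay above 0 in homozygous over wild-type cells (26.2% of all genes) and 2 in heterozygous over wild-type cells (26.8%). In homozygous over heterozygous cells 2 lay below 0 (10.2%). A list of 4 genes is too short to set against these shares, and droplet ratios are not given for the partners.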

How the data were processed

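Raw UMI counts per gene and cell were made by the authors (Cell Ranger 2.0.1, mm10), and the count tables, cell lists and unfiltered matrices are used as deposited. The authors' lists gave the typical and atypical neuronal cells, and the remaining filtered cells were taken as other. Whether the counting used strand was not given in the sources used here. Raw counts were summed per library and cell group and scaled to CPM. Ratios carry exact conditional binomial intervals and sums exact Poisson intervals at 95% (scipy 1.17.1, Python 3.11.15). With 1 library per genotype no test was made. The ratio code was tested on simulated data.

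Other filtered cells (5453) were clustered by the Leiden algorithm on a graph weighted by shared neighbors (1500 variable genes, 20 principal components, 15 neighbors, resolution 0.5). The 107 channel genes, sex-linked genes and mitochondrial genes were left out. A cluster was named from listed markers alone. No doublet caller was run; leaving out the 5% of cells with the most UMIs was an alternative. Empty droplets were barcodes outside the filtered list with at least 100 and fewer than 500 UMIs.

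Genes named were HCN genes, the 2 highest of each role, the 5 largest rises and falls in homozygous over wild-type with a heterozygous ratio of the same sign, the 3 largest homozygous over heterozygous ratios, the 6 largest ratios of other over typical cells, and the 3 largest and smallest of atypical over typical cells. Members and lists were chosen with earlier results of these data known. Values of 4 members are not reported here, although counts and sums over members include them. Alternatives used size factors of edgeR 4.0.16 and DESeq2 1.42.0 (R 4.3.3), other minimum levels and folds, thinning to 1000 UMIs per cell (0 cells left out), and each library left out. Another subtracted the empty-droplet profile from typical cells. It used the largest free RNA share that cell type markers allowed, 26.9, 8.43 and 17.8% in the wild-type, heterozygous and homozygous library.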

Additional observations from a re-analysis of the deposited data

Results flagged for a closer look

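*Kcnq3* differed in direction between libraries when the other filtered cells were set against typical cells. Its log2 ratio was -0.92 in the wild-type and 0.47 in the heterozygous library, with counting intervals on opposite sides of 0. The difference between libraries was not tested. The other filtered cells had a different makeup in each library, for example 593, 79 and 92 cells of inhibitory neuron-like cluster 2, and the part of this makeup was not tested.

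Some channel genes that the filtered table leaves out had more than 3 UMIs in the filtered barcodes of a library's full matrix. In the wild-type library these were *Kcnh5* with 10 UMIs, *Kcnj5* with 8, *Kcnj14* with 6, *Kcnk5* with 5, and *Cacng1* and *Kcne3* with 4 each. In the heterozygous library they were *Cacna1s* with 6, *Cacna2d4* with 5, and *Kcne3*, *Kcnh5* and *Kcnh6* with 4 each. In the homozygous library *Cacna2d4* had 4.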

How the results depend on the processing

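No paired analysis was possible because each genotype had 1 library. Signs were compared for the named genes in homozygous and in heterozygous over wild-type typical cells. None of these ratios whose main interval excluded 0 changed sign under the alternatives run. The signs of other ratios were not compared. Of the counts of channel genes, 93 of 122 stayed within 1.5 times the main count. The counts past 1.5-fold, 0 in the main setting, moved with the minimum level and the fold, and the share of all genes past the same limit is given in parentheses. For homozygous over wild-type, a minimum of 10 CPM gave 1 higher of 30 (*Kcnj16*; 4.29%) and 2 lower (*Cacnb4*, *Kcnd2*; 3.05%), no minimum gave 11 higher (11.1%) and 8 lower (11.5%) of 99, a smaller fold gave 1 higher (17.2%) and 2 lower (*Cacng4*, *Kcnq3*; 8.50%) of 12, and CPM without mitochondrial and ribosomal protein genes gave 1 lower of 20 (*Cacnb4*; 3.12%). For heterozygous over wild-type, 10 CPM gave 2 higher (*Kcnip1*, *Kcnj16*; 4.40%) and 1 lower (*Kcnd2*; 3.34%), no minimum gave 16 (10.2%) and 12 (12.9%), the smaller fold gave 1 higher (17.1%) and 1 lower (*Cacng4*; 9.50%), CPM without those genes gave 1 higher (*Kcnip1*; 3.50%), and atypical cells included gave 1 higher (3.65%). For homozygous over heterozygous, no minimum gave 9 higher (8.15%) and 8 lower (7.02%). Other over typical cells gave 4 higher of 42 at 10 CPM (20.9%), 0 of 3 at 50 CPM (13.1%) and 5 of 19 at 1.5-fold (30.5%), with 1 lower at 1.5-fold (*Kcnmb4os2*; 0.792%). The higher genes at 10 CPM and at 1.5-fold all passed the level limit only through the other cells, so their counts support nothing about the set. With a library left out, other over typical cells gave 2 to 5 higher and 0 to 1 lower (*Cacnb3*), the upper values without the heterozygous library. Atypical over typical cells gave 0 lower with thinned cells, without the cells of most UMIs, at 50 CPM and at 4-fold, and 1 higher of 33 (*Cacna2d3*; 1.06%) at 10 CPM. *Cacna2d3* passed that level limit only through the atypical cells, so its count supports nothing about the set. With a library left out, atypical over typical cells gave 0 to 2 higher, the upper value (*Kcnd2*, *Kcnip2*) without the wild-type library. Of the ratios of named genes 560 stayed inside the main interval and 1 did not. Of the highest cluster levels, 80 stayed within their interval and 9 moved without the cells of most UMIs, an alternative chosen after seeing the data. Counting depth limits genes under 20 CPM, and the absence of replicate libraries limits every genotype ratio.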
